A study of Mus musculus with 12 samples.

Results

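The Slc25 genes encode the mitochondrial solute carriers, and 46 of the 23923 genes measured in the tibialis anterior are described here, each with a symbol that begins with Slc25a and a number. RNA was sequenced from 12 mice aged 6 weeks on a C57BL6/J;129S1/SvImJ background, with 1 library per mouse. The 6 controls were Myf6 cre/+; Smyd1 flox/+, and the 6 conditional knockouts (CKOs) were Myf6 cre/+; Smyd1 flox/-. All 12 mice therefore carried 1 Myf6 cre allele and 1 floxed Smyd1 allele, and the groups differed in the second Smyd1 allele. The Cre in this line is made from the Myf6 locus and acts in skeletal muscle fibers around birth, so other cells of the muscle keep the floxed allele intact. Smyd1 encodes a muscle histone methyltransferase and myosin-binding protein. The study's methods add a Rosa26 YFP/+ reporter allele in both groups. The labels do not give the sex or litter of each mouse, and by the study's text the work that followed its first strength and histology tests used males.

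Carriers of this family sit in the inner mitochondrial membrane and move nucleotides, phosphate, keto acids, amino acids, carnitine esters, cofactors and iron between the cytosol and the matrix. In muscle the ADP/ATP carriers export the ATP that the respiratory chain makes, and the phosphate carrier returns phosphate to ATP synthase. The aspartate/glutamate carriers and the oxoglutarate/malate carrier together form the malate-aspartate shuttle, which brings reducing equivalents from glycolysis into the matrix. A few members sit elsewhere, such as Slc25a17 in peroxisomes and Slc25a46 in the outer mitochondrial membrane.

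Values were FPKM, read levels scaled for transcript length and for library size, and their sum per library ran from 110124 to 156610. Read counts were not part of the values, and the relative depth estimated from the lowest values varied 1.80-fold. Control 1 stood apart, with a summed level of 5 fibroblast markers of 680 FPKM against 177 to 224 FPKM in the other 5 controls and 243 to 403 FPKM in the CKOs. The summed level of 9 slow fiber markers was 30.2 to 62.3 FPKM in controls, 42.9 to 51.8 FPKM in CKOs 2, 4 and 5, and 164, 107 and 324 FPKM in CKOs 1, 3 and 6. Of the 9 genes 8 had positive differences, while Myl3, with the highest control mean, had −0.52, or −0.70 after scaling. At an unadjusted P of 0.05, 7 were higher and 0 lower as deposited, beside 18.1% and 1.76% of all genes. After scaling 6 were higher and 1 lower, beside 6.62% and 7.44%. Myh7b passed an adjusted P of 0.05 as deposited (difference 0.94, adjusted P = 0.047, limma) but not after scaling (0.80, adjusted P = 0.113, limma). The 8 fast fiber markers, which define this muscle, summed to 20847 to 34979 FPKM in controls and 24445 to 28924 FPKM in CKOs. Within the fast fiber sums the myosin gene Myh1 rose (difference 1.05, adjusted P = 0.00733, limma, and 0.86 after scaling). Myh4 had a difference of 0.77 (adjusted P = 0.0599, limma), and the other 6 fast fiber genes had negative differences, from −0.40 to −0.09. After scaling Myh4 had 0.58, and the other 6 had −0.58 to −0.28. Smyd1 itself was 37.4 ± 5.64 FPKM in controls and 34.1 ± 4.36 FPKM in CKOs (SD, n = 6 each), and the ranges overlapped. Its difference was −0.13 (adjusted P = 0.545, limma) as deposited and −0.32 (adjusted P = 0.0797, limma) after the scaling explained next. A value per gene does not resolve the floxed exons, so this level does not check the deletion. Differences are given on the log2(FPKM + 0.1) scale as CKO minus control, both for the FPKM as deposited and after median-ratio scaling, which sets the median gene of each library to a common level. The median difference over 12695 tested genes was 0.18 as deposited and 0.01 after scaling, so values as deposited contain an offset shared by most genes. In whole muscle, fewer cells of a type and less RNA per cell cannot be told apart.

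The 150 bases before the start sites of 2 pairs of paralogs are shown, because each pair shares a substrate while its members differed in listed level by over 100-fold. These folds are rough, as Slc25a13 lay near the detection limit and keeping only uniquely placed reads can lower the values of close paralogs. They are RefSeq promoters on GRCm38.p6, written 5′ to 3′ along the gene's strand, for Slc25a4 (chr8:46211063-46211212, minus), Slc25a5 (chrX:36795447-36795596, plus), Slc25a12 (chr2:71367756-71367905, minus) and Slc25a13 (chr6:6217174-6217323, minus). Capitals mark matches on either strand to CCAAT (the CCAAT box) or GGGCGG (the GC box).
Slc25a4: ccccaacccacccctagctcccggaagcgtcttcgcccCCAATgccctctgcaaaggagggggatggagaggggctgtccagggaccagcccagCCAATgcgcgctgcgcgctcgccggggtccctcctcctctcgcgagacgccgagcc
Slc25a5: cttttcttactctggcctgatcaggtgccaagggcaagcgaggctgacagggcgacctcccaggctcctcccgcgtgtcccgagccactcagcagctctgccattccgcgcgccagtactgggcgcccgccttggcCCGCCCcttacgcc
Slc25a12: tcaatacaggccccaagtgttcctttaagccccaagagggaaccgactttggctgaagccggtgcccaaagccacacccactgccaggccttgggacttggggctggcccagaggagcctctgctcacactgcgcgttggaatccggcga
Slc25a13: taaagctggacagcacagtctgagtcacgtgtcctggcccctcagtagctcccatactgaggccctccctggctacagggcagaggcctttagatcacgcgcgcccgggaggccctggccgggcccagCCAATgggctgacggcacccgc
The Slc25a4 stretch held 2 matches to CCAAT, starting 112 and 56 bases before the start site. The Slc25a13 stretch held 1 such match, 22 bases before the start, while that of Slc25a5 held 1 GC box on the opposite strand and that of Slc25a12 held neither. Windows of 300 bases, from 250 before to 50 after the start, were listed for 36 members and numbered 46. Of these, 82.6% held GGGCGG and 47.8% held CCAAT, beside 35.7% and 37.4% of all 32851 windows. The shares for TATAAA were 4.35% and 13.6%, for CAGCTG 10.9% and 16.3%, for an NRF1-type motif 4.35% and 4.6%, and for an ERR-type motif 0% and 1.28%. The searches covered both strands, and the lack of a match speaks only of these letters in these windows.

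Slc25a4, the ADP/ATP carrier of heart and muscle, dominated the family in every library. Its level was 1521 ± 232 FPKM in controls and 1446 ± 284 FPKM in CKOs (SD, n = 6 each), which was 83.1 to 87.1% of the summed Slc25 level in controls and 83.0 to 85.7% in CKOs. The family as a whole took 1.28 to 1.46% of all FPKM in controls and 1.12 to 1.58% in CKOs. Next in level in controls stood the phosphate carrier Slc25a3 at 74.1 ± 7.09 FPKM and the aspartate/glutamate carrier Slc25a12 at 64.2 ± 1.04 FPKM, whose ranges overlapped. The oxoglutarate/malate carrier Slc25a11 at a mean of 40.03 ± 5.61 FPKM lay below both with no overlap, and the carnitine-acylcarnitine carrier Slc25a20 at 15.6 ± 3.35 FPKM lay below Slc25a11 with no overlap. Those 5 were the only members with a mean of at least 10 FPKM over the 12 libraries. From Slc25a20 downward the ranges of neighbours in the order overlapped down to Slc25a46, whose lowest control lay above the highest Slc25a16 control. A further 22 members had means of 1 to 10 FPKM, and 12 tested members lay under 1 FPKM. The other 7 members (Slc25a21, Slc25a31, Slc25a41, Slc25a43, Slc25a48, Slc25a53 and Slc25a54) failed the filter of at least 0.1 FPKM in at least 6 libraries and were not tested. None of those 7 exceeded 0.192 FPKM in any library, and they were above 0 in 1 to 9 of the 12 libraries.

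**Figure D1:**
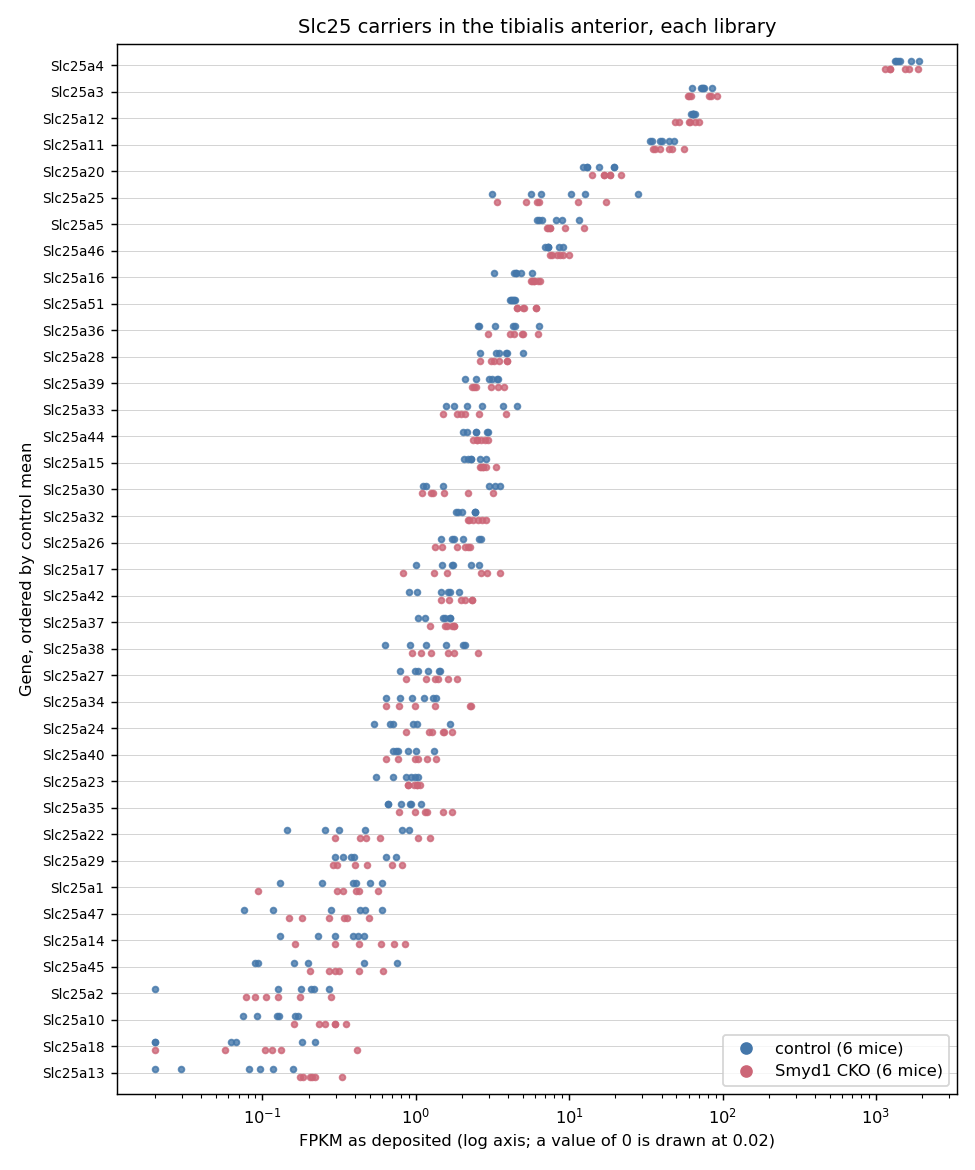
FPKM as deposited of 39 tested Slc25 genes, on a log axis, with 1 point per library (6 controls, 6 Smyd1 CKOs) and genes ordered by control mean. Slc25a4 lies at 1150 FPKM or above in all 12 libraries while most members lie under 10 FPKM, and the points of both groups overlap for all but Slc25a13 and Slc25a51.

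No member passed an adjusted P of 0.05 in limma's test in either direction. Among all 12695 genes tested as deposited, 2.02% passed as higher in CKOs and 0.268% as lower, and after scaling 0.764% and 0.709%. At an unadjusted P of 0.05, 7 of the 39 tested members were higher (Slc25a10, Slc25a13, Slc25a16, Slc25a24, Slc25a35, Slc25a42 and Slc25a51) and 0 lower. That share of 17.9% lay beside a background of 18.1% higher and 1.76% lower. After scaling 2 members were higher (Slc25a10 and Slc25a13, background 6.62%) and 2 lower (Slc25a12 and Slc25a28, background 7.44%). Quantile normalization, another scaling, left 3 higher (Slc25a10, Slc25a13 and Slc25a16, background 6.38%) and 1 lower (Slc25a28, background 6.59%), with 0 past the adjusted threshold in either direction (background 0.796% and 0.536%). The median difference of the 39 members was 0.16 as deposited and −0.0082 after scaling, beside 0.18 and 0.01 for all genes. The 5 members of at least 10 FPKM had a median of −0.03 as deposited and −0.22 after scaling, while the 1423 genes of that level had 0.09 and −0.10. Slc25a42 is described because it appeared in these counts, a choice made after its values were seen.

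**Figure D2:**
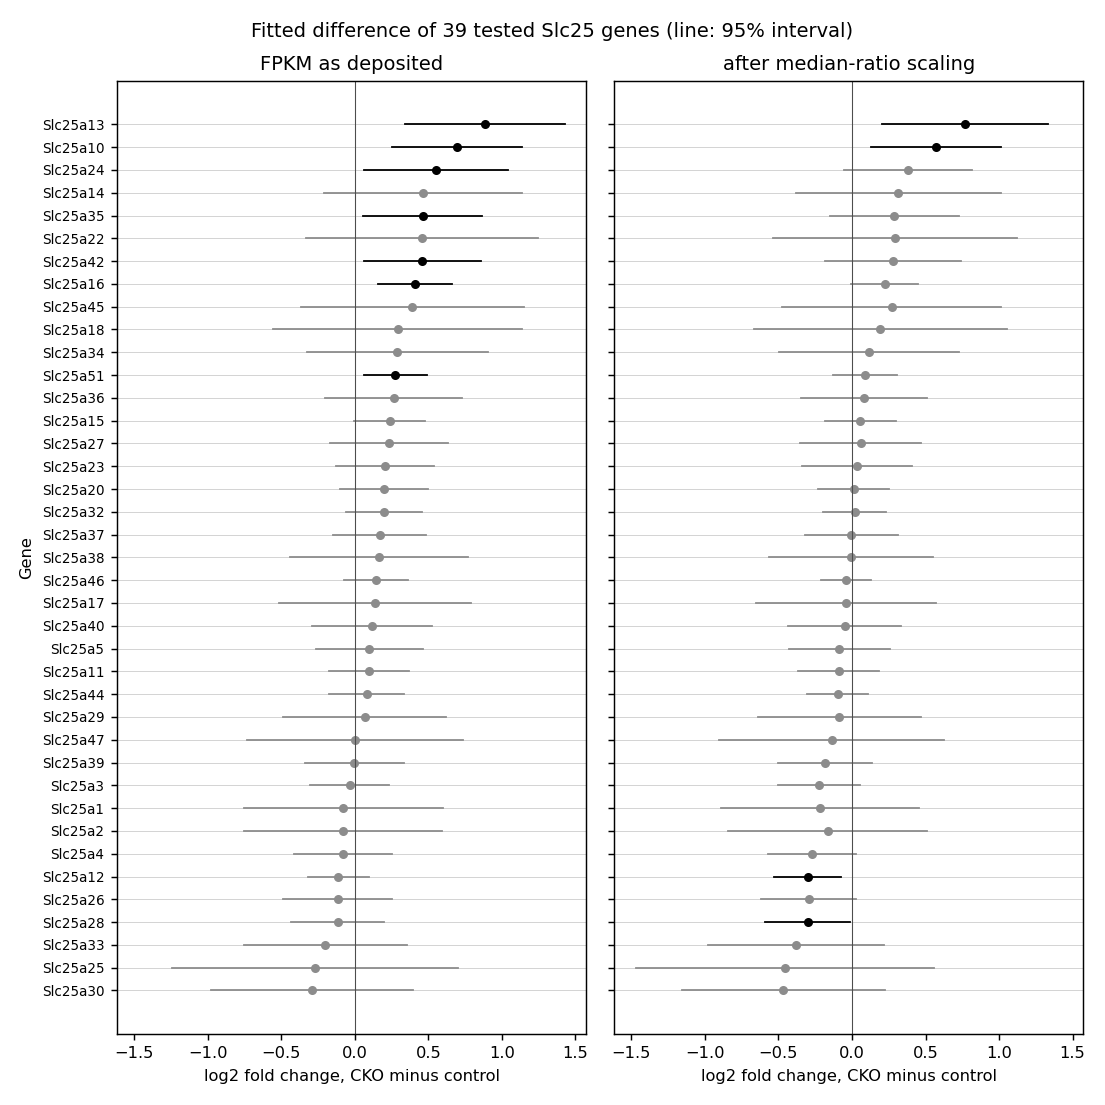
Fitted log2 fold change, CKO minus control, of 39 tested Slc25 genes, with its 95% interval as a line, from FPKM as deposited on the left and after median-ratio scaling on the right. Black marks an unadjusted P under 0.05, which holds for 7 genes on the left, all higher, and for 2 higher and 2 lower genes on the right.

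The ADP/ATP and phosphate carriers showed no difference that passed a test. Slc25a4 ran from 1336 through a median of 1418 to 1916 FPKM in controls and from 1150 through 1390 to 1869 FPKM in CKOs. CKOs 3, 4 and 6 were the lowest 3 of the 12 libraries, and CKO 5 was the second highest. Its difference as deposited was −0.08 (95% interval −0.42 to 0.25, adjusted P = 0.792, limma). After scaling the control spread narrowed to 1594 ± 88.4 FPKM, CKOs were 1341 ± 269 FPKM, and the difference was −0.27 (−0.57 to 0.03, adjusted P = 0.41, limma). Slc25a3 ran from 63.0 through 73.8 to 85.1 FPKM in controls and from 59.4 through 72.0 to 92.2 FPKM in CKOs, with CKOs 3, 4 and 6 again the lowest. Its difference was −0.03 (−0.30 to 0.23) as deposited and −0.22 (−0.50 to 0.06) after scaling. Slc25a5, the ADP/ATP carrier of many dividing tissues, was 7.996 ± 2.07 FPKM in controls and 8.53 ± 2.08 FPKM in CKOs. Its difference was 0.10 as deposited and −0.09 after scaling, so the scaling set its sign.

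The carriers of the malate-aspartate shuttle held the steadiest control level of the family as deposited, and on both scales its largest fitted difference. Slc25a12 stayed between 62.6 and 65.8 FPKM in the 6 controls, a coefficient of variation of 1.62%, while the 6 CKOs spread from 49.0 to 70.4 FPKM. Among CKOs, 6 and 3 were lowest and 5 and 2 highest, and the latter pair lay above all controls. The difference was −0.11 (SE 0.098, adjusted P = 0.529, limma) as deposited and −0.30 (SE 0.107, adjusted P = 0.207, limma) after scaling, which also widened the control spread to 68.0 ± 6.28 FPKM, a coefficient of variation of 9.24%, above those of Slc25a46 (3.25%) and Slc25a4 (5.55%). Slc25a13, the paralog best known from liver, was near the detection limit. It was listed at 0.0296, 0.158, 0.117, 0.082, 0 and 0.0963 FPKM in controls 1 to 6 and at 0.184, 0.219, 0.205, 0.211, 0.331 and 0.176 FPKM in CKOs 1 to 6. It reached the filter's 0.1 FPKM in 6 CKOs and 2 controls and thus entered the tested genes only through the group in which it was higher, so its P values below, and that of its ratio, are no independent support. Every CKO lay above every control as deposited, while after scaling the highest control (0.185 FPKM) lay above 2 CKOs. The difference was 0.88 (SE 0.256, adjusted P = 0.083, limma) as deposited and 0.77 (SE 0.264, adjusted P = 0.188, limma) after scaling. Slc25a11 ran from 33.6 through 39.6 to 48.0 FPKM in controls and from 35.3 through 42.0 to 55.7 FPKM in CKOs, and its difference was 0.10 as deposited and −0.09 after scaling. Slc25a10, which exchanges dicarboxylates for phosphate, was 0.126 ± 0.0378 FPKM in controls and 0.267 ± 0.0665 FPKM in CKOs, where only CKO 3 reached into the control range. It reached 0.1 FPKM in 6 CKOs and 4 controls, so it too needed the CKOs to pass the filter. Its difference was 0.70 (SE 0.208, adjusted P = 0.0892, limma), and 0.57 after scaling. Of the 7 members of this substrate class, 2 were higher at an unadjusted P of 0.05 as deposited (background 18.1%), and after scaling 2 were higher and 1 lower (background 6.62% and 7.44%). Both higher members needed the CKOs to pass the filter, as did Slc25a18, which reached 0.1 FPKM in 4 CKOs and 2 controls.

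**Figure D3:**
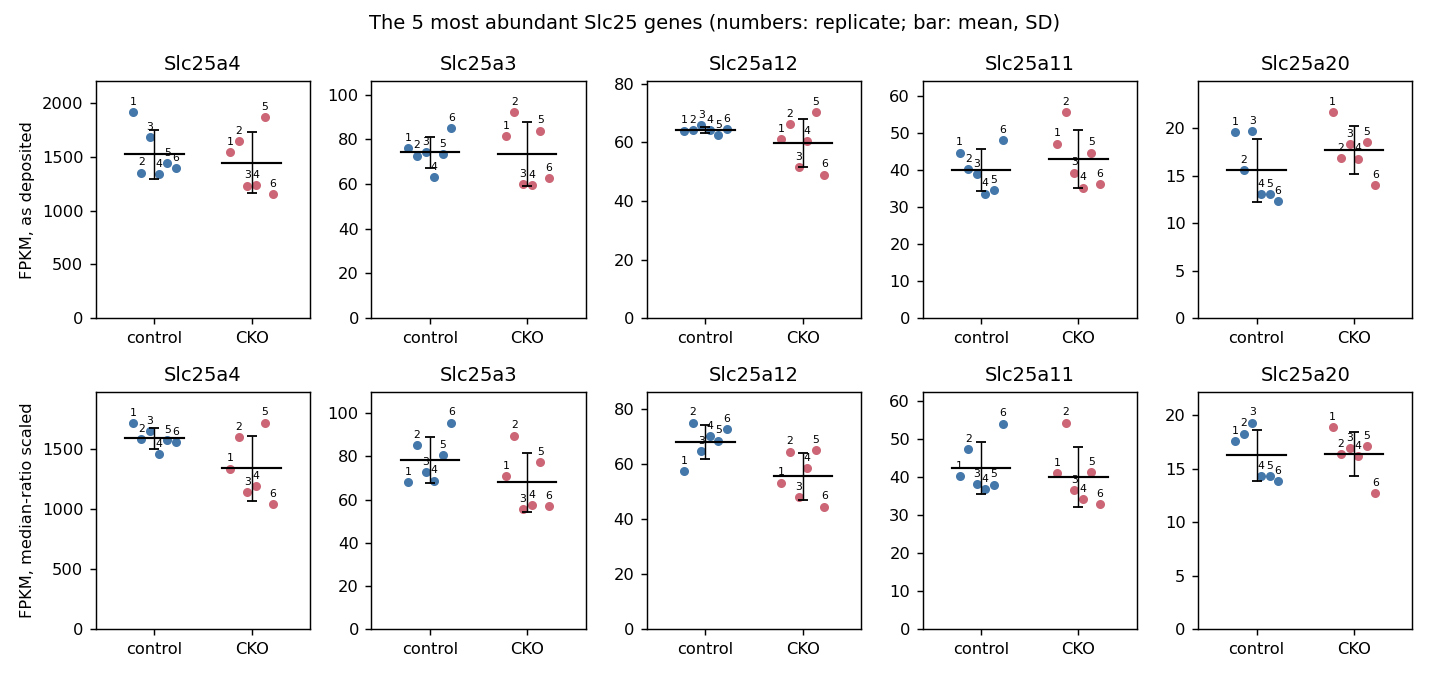
FPKM of the 5 most abundant Slc25 genes in each library (points numbered by replicate; the bar is the mean and the error bar the SD, n = 6), as deposited above and after median-ratio scaling below. CKOs 3, 4 and 6 lie lowest for Slc25a4 and Slc25a3, and the Slc25a12 controls as deposited lie between 62.6 and 65.8 FPKM.

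Of 7 tested carriers of cofactors and pyrimidine nucleotides, 3 were higher as deposited at an unadjusted P of 0.05 (background 18.1%), and none passed it after scaling. Slc25a16, linked to coenzyme A transport, ran from 3.26 through 4.49 to 5.72 FPKM in controls and from 5.66 through 5.92 to 6.43 FPKM in CKOs. Only control 3 reached into the CKO range, and the difference was 0.41 (SE 0.119, adjusted P = 0.083, limma), or 0.22 after scaling. Slc25a51, which imports NAD+, was 4.27 ± 0.116 FPKM in controls and 5.22 ± 0.675 FPKM in CKOs. As deposited its groups did not overlap, the lowest CKO being at 4.54 FPKM and the highest control at 4.44 FPKM. Slc25a13 and Slc25a51 were the 2 members without overlap and higher in CKOs, 5.13% of those tested beside a background of 2.23%, and none was lower (background 0.189%). As Slc25a13 needed the CKOs to be tested at all, nothing is read from that share. After scaling 0 members were without overlap in either direction (background 0.788% and 0.74%), and the Slc25a51 difference went from 0.27 (adjusted P = 0.155, limma) to 0.09 (adjusted P = 0.77, limma). Slc25a42, a carrier of coenzyme A and adenine nucleotides, was 1.43 ± 0.396 FPKM in controls and 1.97 ± 0.359 FPKM in CKOs, with differences of 0.46 as deposited and 0.28 after scaling. The pyrimidine nucleotide carriers Slc25a33 and Slc25a36 varied more among mice than between groups, with coefficients of variation in controls of 42.6% and 36.9%.

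The 3 tested carriers of ATP-Mg and phosphate, which calcium activates, included the most variable member above 10 FPKM in controls. Slc25a25 was 3.15 FPKM in control 3 and 28.1 FPKM in control 4, a coefficient of variation of 81.6% over controls, and CKOs ran from 3.37 to 17.4 FPKM. Its difference of −0.27 as deposited had a 95% interval from −1.24 to 0.70, and without control 4 it became 0.07. After scaling the difference over all libraries was −0.46. Slc25a24 was 0.928 ± 0.405 FPKM in controls and 1.35 ± 0.303 FPKM in CKOs, a difference of 0.55 (adjusted P = 0.201, limma), or 0.38 after scaling. Control 1 held the highest of the control values at 1.67 FPKM. Without control 1, Slc25a24 and Slc25a16 passed the adjusted threshold as deposited (adjusted P = 0.0354 and 0.0415, limma) and no member did so after scaling. The median difference of all tested members as deposited was 0.211 without control 1, beside 0.165 with all libraries. The share of all genes that passed without control 1 is not given, so nothing is read from these calls. Slc25a23 was 0.847 ± 0.183 FPKM in controls and 0.975 ± 0.0744 FPKM in CKOs.

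None of the 11 tested carriers of amino acids, carnitine and other small metabolites passed an unadjusted P of 0.05 on either scale. The background was 18.1% higher and 1.76% lower as deposited, and 6.62% and 7.44% after scaling. Slc25a20 ran from 12.3 through 14.4 to 19.7 FPKM in controls and from 14.0 through 17.6 to 21.7 FPKM in CKOs, with differences of 0.20 (95% interval −0.10 to 0.50) as deposited and 0.01 (−0.23 to 0.25) after scaling. The ornithine carrier Slc25a15 was 2.39 ± 0.296 FPKM in controls and 2.83 ± 0.269 FPKM in CKOs, with differences of 0.24 and 0.06. Slc25a39 and Slc25a40, which serve glutathione import, had differences of 0.00 and 0.12 as deposited and −0.19 and −0.05 after scaling.

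The iron carriers, the uncoupling-protein-like carriers and the less well assigned members held no difference past the adjusted threshold. At an unadjusted P of 0.05, Slc25a35 was higher as deposited (background 18.1%) and Slc25a28 lower after scaling (background 7.44%). Slc25a28 (mitoferrin 2) was 3.71 ± 0.79 FPKM in controls and 3.38 ± 0.521 FPKM in CKOs as deposited. Its difference was −0.12 as deposited and −0.30 (SE 0.135, adjusted P = 0.335, limma) after scaling. Slc25a37 (mitoferrin 1), which red cell precursors use most, was 1.43 ± 0.273 FPKM and 1.61 ± 0.2 FPKM. The summed level of 7 erythroid markers was 12.9 to 52.0 FPKM in controls and 19.6 to 40.9 FPKM in CKOs, with Hba-a2 and Slc4a1 under 0.1 FPKM in all 12 libraries. Slc25a14 and Slc25a27, both uncoupling-protein-like, had differences of 0.46 (95% interval −0.21 to 1.14) and 0.23 (−0.17 to 0.64) as deposited. After scaling these were 0.31 and 0.06. Slc25a46, which acts in mitochondrial shape rather than as a known transporter, was 7.74 ± 0.872 FPKM in controls and 8.56 ± 0.923 FPKM in CKOs. Slc25a35, whose substrate is poorly known, was 0.842 ± 0.168 FPKM in controls and 1.22 ± 0.342 FPKM in CKOs, a difference of 0.46 (adjusted P = 0.193, limma), or 0.29 after scaling.

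The ratio of 2 carriers within a library is nearly free of library scaling, and 6 pairs with a shared or close substrate were compared. The log2 ratio of Slc25a12 to Slc25a13 was 8.54 ± 0.489 in controls and 7.55 ± 0.162 in CKOs (SD, n = 6 each), a difference of −0.996. The lowest control (7.96) lay above the highest CKO (7.75). The two-sided exact permutation P over all assignments of libraries to groups was 0.00216, the smallest this design can give, and 0.013 after Benjamini-Hochberg adjustment over the 6 ratios. As stated above, Slc25a13 passed the filter only through its CKO values, and the P is conditional on that. The pairs were also chosen with earlier results of these data known, which the adjustment over the 6 ratios does not cover. Leaving out each library in turn gave −1.11 to −0.85, and without control 5, in which Slc25a13 is listed at 0, the difference was −0.85. The ratio rests on Slc25a13 values under 0.34 FPKM, and raising the pseudocount from 0.1 to 1 FPKM moved the difference to −0.29. The other 5 ratios overlapped between the groups. The ratio of Slc25a4 to Slc25a5 was 7.58 ± 0.273 in controls and 7.40 ± 0.305 in CKOs, a difference of −0.18 with an adjusted exact permutation P of 0.438. The differences were −0.29 for Slc25a28 to Slc25a37, −0.82 for Slc25a25 to Slc25a24, −0.47 for Slc25a33 to Slc25a36 and −0.12 for Slc25a39 to Slc25a40, with adjusted exact permutation P values of 0.438, 0.438, 0.447 and 0.604.

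**Figure D4:**
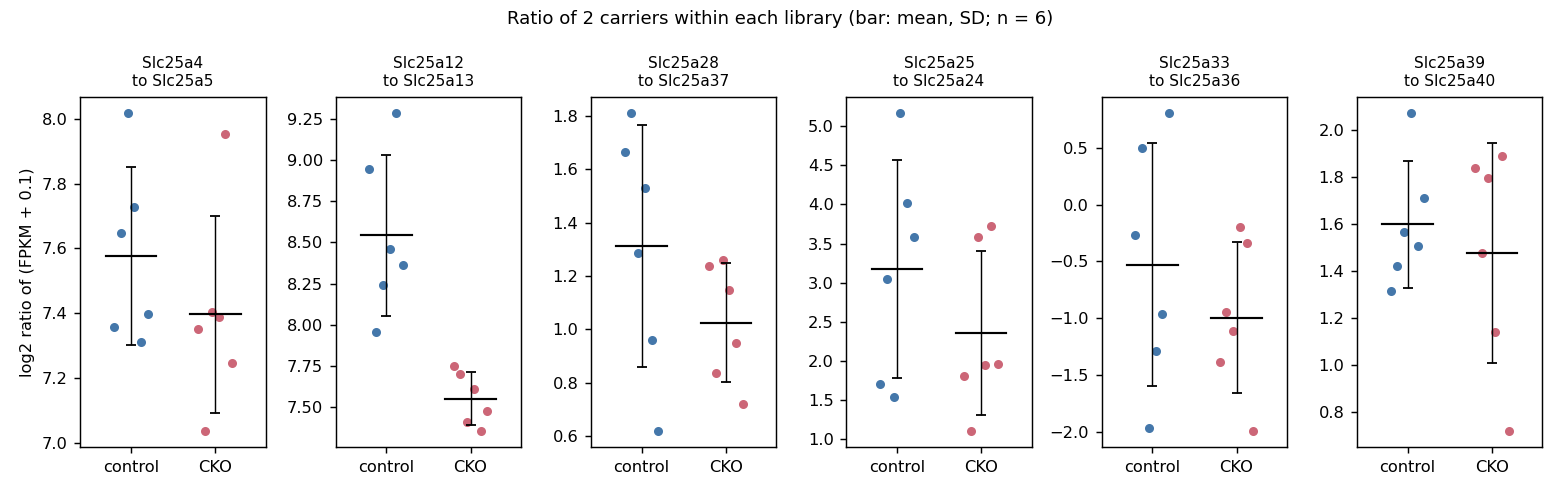
Log2 ratio of (FPKM + 0.1) of 2 carriers within each library for 6 pairs, with 1 point per library, the mean and the SD (n = 6 per group) and a separate vertical scale per panel. The groups do not overlap for Slc25a12 to Slc25a13 (controls 7.96 to 9.29, CKOs 7.35 to 7.75) and overlap for the other 5 pairs.

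Related genes of the same membranes were described from lists. In the 46 nuclear-encoded genes of the respiratory chain and ATP synthase, the median difference was −0.02 as deposited, with 0 genes past an unadjusted P of 0.05 in either direction (background 18.1% higher and 1.76% lower). After scaling the median was −0.21, and 15 of the 46 were lower and 0 higher at that threshold, with none past the adjusted one. After scaling 7.44% of all genes were lower, and 332 of the 1423 genes of at least 10 FPKM, a level that 44 of the 46 reached. The smallest P as deposited was that of Uqcrc1, a core subunit of complex III, with a difference of −0.20 (adjusted P = 0.274, limma). After scaling the Uqcrc1 difference was −0.39 (adjusted P = 0.0892, limma). The 3 outer membrane channels Vdac1, Vdac2 and Vdac3 had a median of −0.07 as deposited, with none past that threshold, and of −0.25 after scaling, with 3 of 3 lower at an unadjusted P of 0.05, beside those same shares. Vdac1 had the smallest P of the 3, with a difference of −0.18 as deposited (adjusted P = 0.39, limma) and −0.37 after scaling (adjusted P = 0.186, limma). Of 9 genes of calcium and cation exchange, 2 were higher and 0 lower as deposited (background 18.1% and 1.76%), and 2 were higher and 2 lower after scaling (background 6.62% and 7.44%). Micu2, a gatekeeper of the calcium uniporter, rose from 7.48 ± 1.504 to 10.9 ± 1.51 FPKM, a difference of 0.55 (adjusted P = 0.0441, limma), and of 0.36 after scaling (adjusted P = 0.0828, limma). Of the 11 measured genes of carrier import into the inner membrane, 2 were higher as deposited and 1 after scaling, beside 18.1% and 6.62% of all genes, with none lower. The import receptor Tomm20 had the smallest P of these, with a difference of 0.44 as deposited (adjusted P = 0.0879, limma). After scaling the Tomm20 difference was 0.26 (adjusted P = 0.354, limma). Of the 7 pyruvate carrier subunits and sideroflexins, none passed as deposited (background 18.1% higher and 1.76% lower). After scaling 1 was lower (background 7.44%, and 332 of the 1423 genes of at least 10 FPKM). The lower gene was the pyruvate carrier subunit Mpc2, at 88.1 FPKM in controls and 75.2 FPKM in CKOs. Its difference was −0.23 as deposited (adjusted P = 0.32, limma) and −0.41 after scaling (adjusted P = 0.0709, limma). Of the 4 tested carrier-fold genes without an Slc25a symbol, none passed on either scale. The background was 18.1% higher and 1.76% lower as deposited, and 6.62% and 7.44% after scaling. As deposited Mtch1 had the smallest P of the 4, with a difference of 0.18 (adjusted P = 0.413, limma), which became −0.0047 after scaling.

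Markers of other cells were set beside the carriers. The slow fiber sums of CKOs 1, 3 and 6 exceeded every control, and among these Slc25a4 was at 1541 FPKM in CKO 1, 1233 FPKM in CKO 3 and 1150 FPKM in CKO 6. Endothelial markers summed to 26.9 to 40.8 FPKM in controls and 27.0 to 45.2 FPKM in CKOs, Schwann cell markers to 3.88 to 8.65 and 6.54 to 12.2 FPKM, macrophage markers to 7.09 to 28.0 and 10.3 to 16.1 FPKM, and adipocyte markers to 94.7 to 308 and 95.7 to 212 FPKM. Fabp4 made up most of the adipocyte sum (155 ± 78.1 and 129 ± 42.1 FPKM, difference −0.20), while the other 4 tested adipocyte markers had positive differences, the largest being 1.39 for Cfd (adjusted P = 0.0564, limma). Control 1 held the highest control sum of the macrophage, adipocyte, fibroblast, erythroid, slow fiber and fast fiber lists, but not of the endothelial and Schwann cell lists. It also had the highest summed FPKM of all libraries (156610). The part of these cells and of fiber type in the carrier values was not tested.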

How the data were processed

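Tibialis anterior RNA was sequenced from 6 controls and 6 Smyd1 CKOs, mice aged 6 weeks. The authors depleted ribosomal RNA, sequenced on an Illumina HiSeq, removed adapter sequence and mapped to the mouse genome (bowtie2, tophat; up to 2 mismatches). Only uniquely placed reads were kept, which can lower the values of close paralogs and of genes with near-identical copies. The authors made the deposited FPKM with cufflinks. The submitters' processing notes name TopHat2 2.0.10, Cufflinks 2.1.1 and build mm9. The authors took differential expression from counts, which were not used here.

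Of 23950 rows per library, 27 carried a calendar date where a gene name belonged and were dropped. The 12695 genes that reached 0.1 FPKM in 6 or more libraries were fitted with limma 3.58.1 (R 4.3.3; lmFit and eBayes with an intensity trend) on log2(FPKM + 0.1), with Benjamini-Hochberg adjustment over all of them. A fold change on this scale understates the change of low genes. Scripts were tested on simulated data with known fold changes. Ratios were tested by exact permutation (scipy 1.17.1). Relative depth was estimated from the lowest nonzero values and read counts are unknown, so no interval for counting error is given. Exact zeros can be failed estimates: 5 genes were at 0 in one library and at 10 FPKM or more in another, and 0 of these were members.

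The symbol pattern matched 47 genes, of which 1 is not reported here and is left out of the counts of members. Members, lists and ratios were chosen with earlier results of these data known. The text names the 5 most abundant members, the 2 of smallest P in each role list, members of the ratios and any past the adjusted threshold; of related lists, the gene of smallest P and any past that threshold. Grouping came from the labels, and each mouse gave 1 library. Promoters came from RefSeq on GRCm38.p6, another build than that of the files, so no position of a gene in the files is given. Alternatives were other pseudocounts, filters, scalings, no trend, sample weights, a replicate block and each library left out; leaving out libraries after scaling was chosen after seeing the data.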

Additional observations from a re-analysis of the deposited data

Results flagged for a closer look

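Among 92 groups of 6 libraries tested for a value far from the rest, 3 were flagged, and chance flags about 1 in 20. In CKOs, CKO 5 was highest for Slc25a13 at 0.331 FPKM (next 0.219), for the ornithine carrier Slc25a15 at 3.35 FPKM (next 2.87) and for the glutamate carrier Slc25a18 at 0.413 FPKM (next 0.131). CKO 5 had the lowest relative depth of the 12 libraries (0.983) and the fewest genes above 0 (13813).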

How the results depend on the processing

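As deposited, the count of members higher at an adjusted P of 0.05 was 0 in the limma fit reported. It was 1 (Slc25a10) without the intensity trend and 3 (Slc25a13, Slc25a16 and Slc25a24) with sample weights. With each library left out it was 0 to 2, 2 being without control 1. The count lower was 0 in every alternative run. Slc25a10 and Slc25a13 needed the CKOs to pass the filter. For the fits without the trend, with weights or with a library left out, the share of all genes past that threshold is not given. Nothing is therefore read from those counts. At an unadjusted P of 0.05 the 7 higher became 2 after median-ratio scaling, 3 after quantile normalization, 2 with a replicate block and median-ratio scaling, and 5 to 7 with each library left out, while the 0 lower became 2, 1 and 2 under those scalings. The members' median of 0.165 became −0.00818, −0.00707 and −0.00818 under those scalings and 0.125 to 0.211 with each library left out. The 2 members without overlap became 0 under median-ratio scaling and quantile normalization, and 2 to 4 with each library left out, 4 being without control 3. After median-ratio scaling, leaving out each library gave 2 to 3 higher and 1 to 5 lower at an unadjusted P of 0.05. The 5 came without CKO 2 (Slc25a3, Slc25a4, Slc25a12, Slc25a26 and Slc25a30), and Slc25a28 was no longer lower at that threshold without controls 1 to 5 or CKOs 1, 2, 5 and 6, each left out alone. At an unadjusted P of 0.05, the share of all genes is not given with a block or with a library left out. It is also not given for the counts without overlap after quantile normalization or with a library left out. Nothing is read from those counts either. The cause of these shifts was not tested.

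The labels do not say whether replicate numbers pair the mice, and the values do not settle it. Same-numbered libraries correlated at −0.0861 to 0.164 (mean 0.0404) in their deviations from group means, other pairs at −0.160 to 0.186 (mean −0.0088). Of the 12 libraries, 5 correlated best with their own number, where numbers without meaning would give about 1 in 6. With the replicate block as deposited the counts were 7 higher and 0 lower unadjusted. The share of all genes with the block is not given, so nothing is read from these counts. The Slc25a12 to Slc25a13 ratio kept its difference of −0.996 with the block, and its adjusted P from exact sign flips rose to 0.188. With only 6 pairs to flip, the P before adjustment cannot be very small.

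The ratio of Slc25a39 to Slc25a40 ran from −0.204 to 0.0300 with each library left out, the latter without CKO 6. Of the 39 members, 28 had positive and 11 negative differences as deposited (71.8% positive, beside 77.9% of all genes tested). After median-ratio scaling 18 members had positive and 21 negative differences (46.2% positive, beside 51.2% of all genes tested). The 10 whose sign turned lay between 0.00 and 0.17 as deposited. Of those named by rule, with or without the block, Slc25a5 was −0.0877, Slc25a11 −0.0899, Slc25a37 −0.00581, Slc25a40 −0.0505 and Slc25a46 −0.0419, and after quantile normalization Slc25a5 was −0.0493, Slc25a23 −0.00707, Slc25a37 −0.0359 and Slc25a40 −0.0943. With libraries left out, Slc25a3 ran from −0.105 to 0.0218, Slc25a5 from −0.0159 to 0.211, Slc25a25 from −0.557 to 0.0666 and Slc25a39 from −0.0939 to 0.0565.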
